A study of Mus musculus with 6 samples.

Results

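The genes described here are the insulin-like growth factors (IGFs), their clearance receptor and their binding proteins, compared between OS3 glial cells with and without H3.3K27M. They were taken as a list of 10 genes, *Igf1*, *Igf2*, *Igf2r*, *Igfbp2* to *Igfbp7* and *Igf2bp2*, out of 22911 genes named on the array, and their probes were found through the RefSeq accession that the scanner output gives for each probe. All 10 were on the array, and 9 of them were among the 14898 genes with enough signal to be tested. OS3 is an SV40-immortalized glial line from the brain of newborn male C3H mice (C3H/HeN in the methods). WT cells (OS3-vector, 3 samples) carried the empty vector, and IG27 cells (OS3-H3F3A_K27M, 3 samples) carried a pcDNA3.1(+) plasmid with *H3f3a* in which lysine 27 of histone H3.3 is changed to methionine. The plasmid was brought in by lipofection and clones were made by drug selection, and whether the IG27 samples came from 1 clone is not given in the sources used here. Both groups grew for 2 days before RNA extraction, in medium with fetal bovine serum and bovine insulin, so the insulin supplement was shared by all samples. The 3 samples of a group were separate dishes, so that p-values measure the spread between dishes of a line and not between independently made lines.

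IGF1 and IGF2 are secreted growth factors that act through IGF1R, a receptor tyrosine kinase that signals through insulin receptor substrates, PI3K and AKT. IGF2R, which is also the cation-independent mannose 6-phosphate receptor, has no kinase and carries IGF2 to lysosomes for breakdown. The IGF-binding proteins hold the ligands outside the cell, where they can limit or prolong their action, and several of them also bind matrix or cell surface. IGFBP2 is known as a protein raised in high-grade glioma.

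Each sample was read in Cy3 on an Agilent mouse array of its own, and 1 slide held all 6 arrays. Values are normalized log2 intensities, that is log2 of the processed signal minus the 75th percentile of the array, so that 0 is the 75th percentile. On the 5 arrays with complete scanner output, 58.8% to 61.2% of the 56605 probes were well above background by the flag of the scanner software, and no spot was saturated. The scanner output of IG27 replicate 2 holds 285 of 62976 spots, so its values came from the deposited value table and it has no such flag. On the slide, WT replicate 2 shared a row with all 3 IG27 arrays, and the other row held WT replicates 1 and 3. Of the 14 glial markers listed, 11 were well above background on all WT arrays and 14 on both complete IG27 arrays, among them *Gfap*, *Sox10*, *Nes* and *Vim* in both groups. Of 6 markers each, 3 of neurons, 3 of microglia and 2 of endothelium were also well above background on all WT arrays, and 3, 4 and 3 on both complete IG27 arrays, among them *Tubb3*, *Snap25*, *Csf1r* and *Tmem119* in both groups. *Rbfox3* and *Syt1* of neurons, *Cx3cr1* and *Ptprc* of microglia, and *Cdh5*, *Tek* and *Cldn5* of endothelium were not well above background on any complete array. Precision is limited by the number of arrays.

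Among these genes the largest differences between IG27 and WT cells were in binding proteins, with *Igfbp2* 45.5-fold higher and *Igfbp5* 12.4-fold lower. Of the 9 genes tested, 7 were higher in IG27 cells and 1 was lower by the two-sided test of limma, with 0.05 as the threshold on the adjusted p, and in these 8 the arrays of the groups did not overlap. Over all genes tested, 70.5% passed the same threshold, 30.5% higher and 40.0% lower, and 75.7% did not overlap, so that passing the test was common on these arrays and the size of the change says more than the call. Among the 9 genes, 7 also differed by 2-fold or more, 6 higher and 1 lower. Over all genes tested 23.1% did so, 11.5% higher and 11.7% lower. The median log2 fold change (IG27 minus WT, or log2 difference) of the 9 genes was 1.04 and that of all genes tested was -0.07. The count of 2-fold changes depends on the setting. *Igfbp4*, tested through its IG27 signal, was well above background on 1 of 3 WT arrays. Normexp background correction gave log2 differences of 0.42 for *Igfbp4* and 0.56 for *Igfbp6*, and quantile normalization gave 0.87 for *Igfbp6*. *Igf2r* was at 0.95 without WT replicate 2 and at 0.99 without IG27 replicate 3. The 10 genes were chosen with earlier results of these data known.

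**Figure D1:**
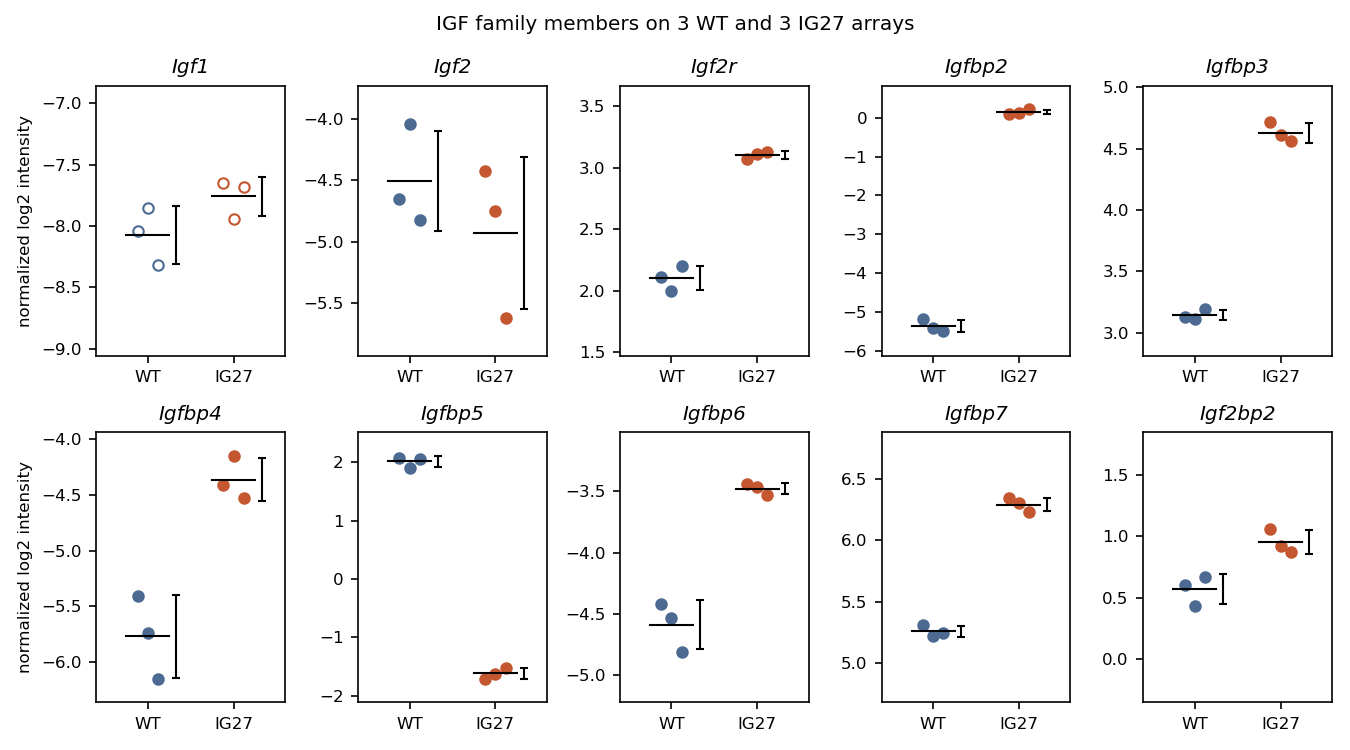
Normalized log2 intensity of the 10 genes (vertical axis, a scale of its own in each panel) on the 3 WT and 3 IG27 arrays. Points are single arrays, horizontal lines are group means, bars are SD (n = 3), and open points mark a gene not well above background on any complete array of the group. The groups are apart in 8 panels, and in the panels of *Igf1* and *Igf2* they overlap.

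The ligands were dim in both groups. *Igf1* had 1 probe, which was not well above background on any complete array. Its processed signal was 4.07, 4.52 and 3.1 in WT replicates 1 to 3 and 5.45, 4.62 and 4.87 in IG27 replicates 1 to 3, so *Igf1* was not tested and has no fold change. *Igf2*, a fetal growth factor expressed from the paternal allele, was measured by the brighter of 2 probes, with normalized log2 intensities of -4.65, -4.04 and -4.82 in WT cells and -4.42, -4.75 and -5.62 in IG27 cells. This probe was well above background on the 3 WT arrays and on 1 of the 2 complete IG27 arrays, and the other probe on none. The groups overlapped, and the log2 difference of -0.43 (95% confidence interval -1.29 to 0.43, adjusted p = 0.315 from limma) leaves room for a fall or a small rise. The insulin genes *Ins1* and *Ins2* were not well above background on any complete array either.

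*Igf2r*, which removes IGF2 from the cell surface, was higher in IG27 cells. It stood, in normalized log2 intensity, at 2.11, 2.0 and 2.2 in WT cells and at 3.07, 3.11 and 3.13 in IG27 cells. The IG27 values were close to each other and all above the WT values. The log2 difference was 1.0 (SE 0.06, limma with adjusted p = 2.21e-05), a 2.0-fold rise. *Airn*, the noncoding RNA that is read from within *Igf2r* on the opposite strand, was also higher, from a mean of 0.09 ± 0.06 in WT cells to 1.26 ± 0.07 with H3.3K27M (SD, n = 3 in each group).

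*Igfbp2* rose most of the 9 genes. Its normalized log2 intensities were -5.18, -5.41 and -5.49 in WT cells and 0.1, 0.13 and 0.21 in IG27 cells. On the linear scale the processed signal was 22 to 29.5 in WT cells and 1150 to 1240 in IG27 cells. The WT values were low but well above background on all 3 arrays, and the log2 difference was 5.51 (SE 0.09, limma with adjusted p = 1.29e-07), 45.5-fold on the linear scale. Of all 14898 genes tested, 172 had a larger log2 fold change. Normexp background correction, which lifts dim signals, gave a log2 difference of 3.82 (limma, adjusted p = 4.36e-08).

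*Igfbp5*, whose protein binds IGFs and extracellular matrix, was the member that fell. Its normalized log2 intensities were 2.08, 1.91 and 2.06 in WT cells and -1.71, -1.62 and -1.52 in IG27 cells. The probe was bright in WT cells and still well above background in IG27 cells, where the processed signal was 334 to 368 against 3910 to 4530. The log2 difference was -3.64 (SE 0.08, limma with adjusted p = 2.67e-07), 12.4-fold lower in IG27 cells, and 150 genes fell further.

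*Igfbp2* and *Igfbp5* are neighbors on chromosome 1, read toward each other from opposite strands, with no other tested gene between them. None of the neighboring genes shown had a fitted change as large as either. Of the 6 tested genes on each side, 3 were higher, 4 lower and 5 did not pass the threshold, and apart from *4933417E11Rik* their log2 fold changes lay between -0.74 and 0.9. Over all genes tested, 30.5% were higher and 40.0% lower. *4933417E11Rik*, the farthest on its side, was not well above background on either complete IG27 array and was at least 2.67-fold lower there (limma, adjusted p = 0.000372). *Rpl37a*, next to *Igfbp2*, was at -0.14 (limma, adjusted p = 0.14) and *Tnp1*, next to *Igfbp5*, at -0.13 (limma, adjusted p = 0.56). These neighbors were chosen for display after the values of the pair had been seen.

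**Figure D2:**
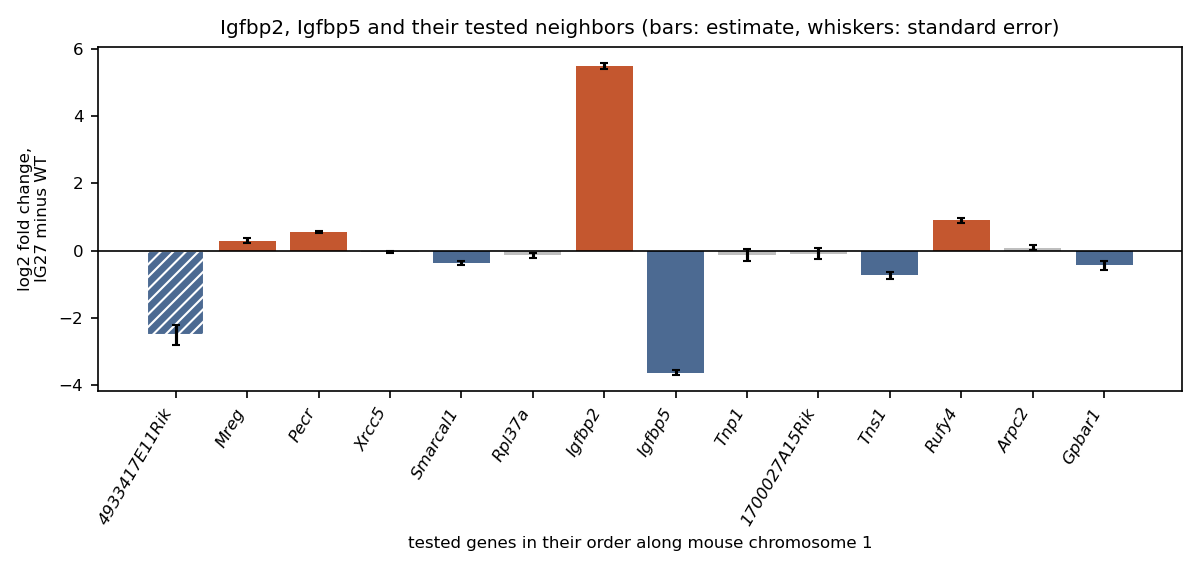
Log2 fold change between IG27 and WT cells (vertical axis) of *Igfbp2*, *Igfbp5* and the 6 tested genes on each side, in their order along chromosome 1 and not to distance. Bars are estimates with the standard error, orange for genes higher, blue for genes lower and gray for genes not past an adjusted p of 0.05 (limma). The hatched bar of *4933417E11Rik* is a fitted value against a dim group, *Igfbp2* stands at 5.51 and *Igfbp5* beside it at -3.64.

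The upstream sequences of the pair are shown because these adjacent genes moved in opposite directions. They are the 250 bases before the first listed start site of each gene, 5′ to 3′ on the strand of the gene, from RefSeq with the GRCm38.p6 build, with CG dinucleotides in capitals. *Igfbp2* lies on the plus strand (chr1:72824230-72824479) and *Igfbp5* on the minus strand (chr1:72874866-72875115).
Igfbp2: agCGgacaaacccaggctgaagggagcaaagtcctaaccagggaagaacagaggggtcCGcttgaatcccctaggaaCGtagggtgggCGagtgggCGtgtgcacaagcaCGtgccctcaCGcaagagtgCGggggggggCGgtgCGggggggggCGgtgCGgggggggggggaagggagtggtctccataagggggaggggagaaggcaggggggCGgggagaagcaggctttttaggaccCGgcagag
Igfbp5: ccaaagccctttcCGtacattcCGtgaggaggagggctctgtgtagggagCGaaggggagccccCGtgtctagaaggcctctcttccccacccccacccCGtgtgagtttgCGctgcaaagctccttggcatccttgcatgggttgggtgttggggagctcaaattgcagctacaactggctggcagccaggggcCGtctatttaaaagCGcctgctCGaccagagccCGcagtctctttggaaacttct
The window of *Igfbp2* holds 14 CG dinucleotides and that of *Igfbp5* holds 10, against a median of 6 over 32851 such windows of all genes. As many or more are held by 29.4% of all windows for *Igfbp2* and by 37.8% for *Igfbp5*. The hexamer GGGCGG, sought on both strands and itself holding 1 CG, is in the window of *Igfbp2* and not in that of *Igfbp5*, and 32.7% of all windows hold it. TATAA, sought on both strands, is in neither, and 22.8% of all windows hold it. The window before the other listed start site of *Igfbp2*, not printed, holds 11 CG dinucleotides and neither GGGCGG nor TATAA.

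Across the other genes the windows differed widely. The window of *Igf2bp2* holds 40 CG dinucleotides, a number reached by 1.31% of all windows, and that of *Igfbp3* holds 32 (4.58% of windows). *Igf2r* has 27, *Igfbp7* 26 and *Igfbp4* 22, whereas *Igfbp6* has 7 and *Igf1* has 5. The 4 windows of *Igf2* hold between 1 and 22. TATAA was found before *Igfbp4* and *Igfbp6*, and GGGCGG before *Igf2r*, *Igfbp7*, *Igf2bp2* and 2 of the 4 start sites of *Igf2*. These counts describe the letters and were not tested against the changes in RNA.

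The other 4 binding proteins were all higher in IG27 cells, by 2.05-fold to 2.81-fold. *Igfbp3*, the main carrier of IGFs in blood, stood, in normalized log2 intensity, at 3.13, 3.11 and 3.19 in WT cells and 4.72, 4.61 and 4.56 in IG27 cells. The groups did not overlap and each was tight, with a log2 difference of 1.49 (SE 0.06, limma with adjusted p = 3.22e-06).

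*Igfbp7*, a secreted protein with weaker affinity for IGFs, stood, in normalized log2 intensity, at 5.31, 5.22 and 5.24 in WT cells and 6.34, 6.3 and 6.23 in IG27 cells. Both groups were far above background, and the log2 difference was 1.04 (SE 0.05, limma with adjusted p = 9.14e-06). *Igfbp6*, which prefers IGF2 over IGF1, was dim, with -4.42, -4.53 and -4.81 in WT cells and -3.44, -3.46 and -3.53 in IG27 cells. Its log2 difference was 1.11 (SE 0.11, limma with adjusted p = 0.00015), and 0.56 after normexp background correction (adjusted p = 0.00109).

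*Igfbp4*, an inhibitor of IGF action that the protease PAPP-A cuts, was near background in WT cells. It had -5.41, -5.74 and -6.15 in WT cells and -4.41, -4.15 and -4.53 in IG27 cells. The probe was well above background on 1 of 3 WT arrays and on both complete IG27 arrays, and the second probe on none. The log2 difference of 1.4 (SE 0.2, limma with adjusted p = 0.000977) fell to 0.42 after normexp background correction (adjusted p = 0.00108). *Igfbp1*, which is no member of the list, was well above background on 1 WT array and on neither complete IG27 array, and was not tested. *Igfbpl1*, a related secreted protein also outside the list, had -7.01, -3.68 and -6.93 in WT cells and -2.11, -2.0 and -1.91 in IG27 cells. WT replicate 2 was the WT array on which it was well above background, and its estimate of 3.87 (adjusted p = 0.00845 in limma) ran from 1.68 to 4.97 over the alternative settings.

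**Figure D3:**
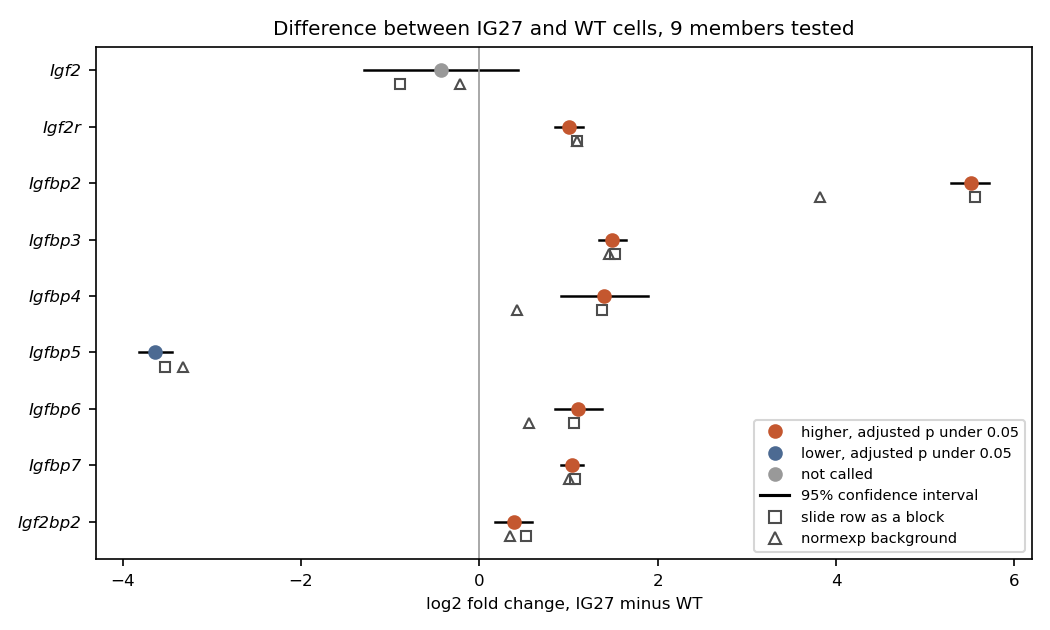
Log2 fold change of the 9 genes tested (horizontal axis, IG27 minus WT). Filled points are estimates with their 95% confidence interval (limma), squares the fit with the slide row as a block, triangles the values after normexp background correction. *Igfbp2* lies at the right at 5.51, *Igfbp5* at the left at -3.64, and the triangles of *Igfbp2*, *Igfbp4* and *Igfbp6* lie nearer to 0 than their points.

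*Igf2bp2* is not a binding protein of IGFs but an RNA-binding protein named for *Igf2* mRNA. Its brighter probe gave normalized log2 intensities of 0.6, 0.43 and 0.67 in WT cells and 1.06, 0.92 and 0.87 in IG27 cells. The rise was small, with a log2 difference of 0.39 (SE 0.08, limma with adjusted p = 0.00635), and the second probe gave 0.51. Of its paralogs, *Igf2bp1* had -4.3 ± 0.08 (SD, n = 3) in WT cells and was not well above background on either complete IG27 array, so that it was at least 2.07-fold lower there (limma, adjusted p = 7.76e-07). The fitted log2 fold change of *Igf2bp1* ran from -3.64 to -0.78 over the alternative settings, so this bound holds for the main fit. *Igf2bp3* differed on the log2 scale by 0.10 (limma, adjusted p = 0.39).

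Genes that act with these ligands and binding proteins were counted from a list of 73 further genes, of which 55 were tested. Of these, 27 were higher, 18 lower and 10 did not pass the threshold (81.8% called), with a median log2 fold change of 0.17. Over all genes tested 70.5% were called, 30.5% higher and 40.0% lower, with a median of -0.07. These shares over all genes stand beside the counts by role that follow as well. Among the receptors, *Igf1r* had -1.96, -1.97 and -1.98 in WT cells and 1.22, 1.29 and 1.2 in IG27 cells, a log2 difference of 3.21 (limma, adjusted p = 1.04e-07), and its second probe gave 3.69. *Insr*, the insulin receptor, was lower, with a log2 difference of -0.88.

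The protease PAPP-A frees IGFs from IGFBP4, and stanniocalcins inhibit it. *Pappa* and *Stc2* were not well above background on any WT array and were at least 1.84-fold and at least 18.8-fold higher in IG27 cells. These bounds hold for the main fit, and the fitted log2 fold changes were as low as 0.51 and 3.01 over the alternative settings. Of the 5 genes tested among the proteases and their inhibitors, 4 were higher and 1, *Htra1* (log2 fold change -0.41), was lower. The call of *Adam12* was lost in 10 of 17 alternative settings.

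Among 8 adaptors tested, 4 were higher and 3 lower. *Irs1* and *Irs2*, which link the receptors to PI3K, moved apart. *Irs1* rose from -0.27 ± 0.03 to 1.35 ± 0.05 and *Irs2* fell from 3.16 ± 0.05 to 0.78 ± 0.12 (SD, n = 3 in each group). *Grb14*, an inhibitor of insulin receptor signaling, differed on the log2 scale by 2.48. The calls of *Grb2* and *Sos1*, both small, were lost in 9 and 6 of 17 alternative settings.

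Of 19 genes from PI3K to mTOR, 8 were higher and 7 lower. *Akt1*, a kinase downstream of PI3K, was lower (log2 fold change -0.53), and its paralog *Akt2* did not pass the threshold (-0.08). *Pik3cd*, a catalytic subunit of PI3K, differed on the log2 scale by 2.99. The small falls of *Pdpk1* and *Rptor* each lost their call in 10 of 17 alternative settings. Of the FOXO factors, some of which AKT keeps out of the nucleus, *Foxo6* (3.76) and *Foxo3* (1.79) were higher and *Foxo1* (-0.65) was lower. The other probe of *Foxo3* gave 0.68 and was not called.

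**Figure D4:**
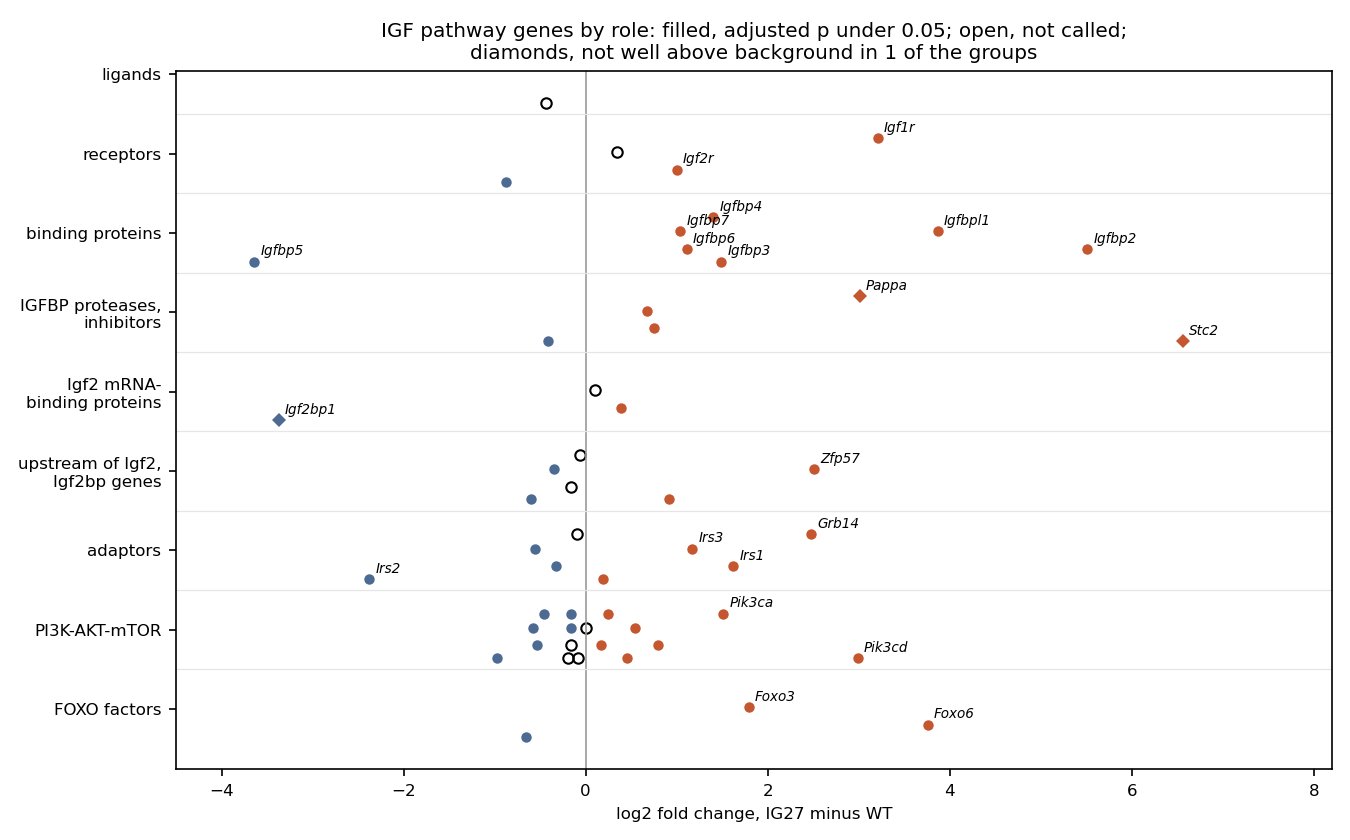
Log2 fold change between IG27 and WT cells (horizontal axis) of the tested IGF pathway genes, in rows by role, with names at changes of at least 2-fold. Filled symbols passed an adjusted p of 0.05 (limma; orange higher, blue lower), open ones did not, and diamonds were not well above background in 1 group, so that their place is a fitted value and not a measured fold. Genes not reported here are not drawn, and of those drawn *Stc2* and *Igfbp2* lie farthest to the right.

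*Igf2* and *Igf2r* belong to imprinted domains. *H19*, the noncoding RNA that shares enhancers with *Igf2* and is read from the maternal allele, failed the background flag on all WT arrays and was at least 11.8-fold higher in IG27 cells (limma, adjusted p = 2.99e-05), while the interval of *Igf2* included 0. The fitted log2 fold change of *H19* was as low as 1.92 over the alternative settings. Of 4 genes tested around *Igf2*, 3 were higher, *H19*, *Ascl2* (1.54) and *Kcnq1ot1* (0.42), and *Th* (0.06) was not called. Over all genes tested, 30.5% were higher. In the *Igf2r* domain, *Airn* and *Igf2r* were tested, and *Slc22a2*, *Slc22a3* and *Mas1* did not reach the filter. Among genes that act on *Igf2* or its imprint, *Ctcf* (-0.60) was lower and *Zfp57* (2.51) higher. The 2 probes of *Plagl1* disagreed, at -0.35 for the brighter and 3.86 for the dimmer.

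The tensin genes lie near several binding protein genes, and of the 3 tested, 2 differed in the direction of their neighbor and 1 in the other. *Tns1*, near *Igfbp5*, was lower as *Igfbp5* was (log2 fold change -0.74). *Igfbp2*, the next tested gene beyond *Igfbp5*, was higher (5.51), so the tally rests on which gene is taken as the neighbor. *Tns3*, near *Igfbp3*, was lower (-0.80) although *Igfbp3* was higher, and the other tested probe of *Tns3* gave -0.09 and was not called. *Tns2*, near *Igfbp6*, was higher (0.71) as *Igfbp6* was, and lost its call with the mean of its probes.

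Profiles over the 6 arrays, centered on the mean of each gene, were most like *Igfbp2* in *P3h3*, *Nrip3* and *Fstl1*, with Euclidean distances of 0.18, 0.25 and 0.3 among 14884 genes. For *Igfbp5* they were *Sytl2*, *Id4* and *Veph1*, with distances of 0.12, 0.14 and 0.16. These distances rest on 2 groups of 3 arrays.

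Binding proteins are also made by fibroblasts and vessel-associated cells, so markers of these were summed on the linear normalized scale. The 8 markers of fibroblasts and mural cells summed to 173 to 177 in WT cells and to 150 to 158 in IG27 cells, with *Dcn* not well above background in WT cells, *Rgs5* not in IG27 cells and *Lum* in neither. Of the 5 tested, *Col3a1* (log2 difference 1.57) and *Dcn* (at least 3.32-fold) were higher. The fitted log2 difference of *Dcn* was as low as 0.95 over the alternative settings. *Pdgfrb* (-1.16), *Col1a1* (-0.92) and *Acta2* (-0.51, brightest probe) were lower, although 2 of the 3 probes of *Acta2* were called higher. Over all genes tested, 30.5% were higher and 40.0% lower. On the linear normalized scale the 14 glial markers summed to 353 to 370.0 in WT cells and 275 to 289 in IG27 cells. The sum is set by the brightest probes, such as that of *Gfap* (6.64 in WT and 5.57 in IG27 cells, as mean normalized log2 intensity). The 2 probes of *Gfap* disagreed, with a log2 difference of -1.07 for the brighter, called lower, and 0.19 for the other, called higher. By count, 7 of the 14 glial markers were higher in IG27 cells, 5 lower and 2 not called, with a median log2 difference of 0.66, and *Fabp7* and *Slc1a3*, dim in WT cells, were at least 110-fold and at least 20.6-fold higher. The fitted log2 differences of *Fabp7* and *Slc1a3* were as low as 4.93 and 2.91 over the alternative settings. The 6 neuronal markers summed to 17.6 to 20.0 in WT cells and 9.97 to 11.0 in IG27 cells, and the 6 of microglia to 4.94 to 5.31 and 2.63 to 2.93. Of the 4 microglial markers tested, *Aif1* (log2 difference 1.66) and *P2ry12* (0.49) were higher and *Csf1r* (-1.57) and *Tmem119* (-0.76) lower. The other probe of *Csf1r* gave -0.13 and did not pass the threshold. Of the 4 neuronal markers tested, 1 was higher, 2 lower and 1, *Snap25*, not called. *Tubb3* went from 3.78 to 1.15 in mean normalized log2 intensity, and *Stmn2*, not well above background on either complete IG27 array, was lower too. *Map2*, well above background on 1 WT array, went from -6.25 to 1.78 (limma, adjusted p = 6.29e-07). The 6 endothelial markers summed to 0.258 to 0.281 in WT cells and 2.82 to 2.91 in IG27 cells. Most of that difference was *Kdr*, which was at least 135-fold higher in IG27 cells, with *Cdh5*, *Tek* and *Cldn5* dim in both. The fitted log2 difference of *Kdr* was as low as 5.35 over the alternative settings. *Vwf* (1.46) was higher too and *Pecam1* (-0.27) lower, a call lost in 8 of 17 alternative settings. The part of these cell types in the changes of the binding proteins was not tested. In cultures measured as a whole, more cells with a gene and more RNA per cell cannot be told apart.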

How the data were processed

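RNA of 3 WT and 3 IG27 dishes was measured on single-color arrays. The authors read each slide with Feature Extraction (version 9.1 per the submitters' processing notes, 10.7.3.1 per the file headers), and the deposited processed signal is an intensity on a linear scale without scaling between arrays. The labels name an RNeasy kit for extraction and the methods a Maxwell kit. The value table the authors deposited repeats this intensity, but its columns and the scanner output carry the labels of WT replicates 2 and 3 the other way round. Which is right cannot be told from the files. Samples are named here after the scanner output, which leaves the groups unchanged but decides which array is called WT replicate 2. The table was the source for IG27 replicate 2, whose 255 single-spot probes with scanner output equaled it (relative tolerance 0.0001).

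Spots with an outlier flag were left out, spots of a probe averaged on the log2 scale, and the 75th percentile of each array subtracted. Accessions named 32994 probes with the GRCm38.p6 RefSeq table, used for names and gene order. A probe was kept if well above background on all complete arrays of 1 group, and the brightest probe stood for its gene. Differences were tested with limma (version 3.58.1, R 4.3.3), two-sided, with Benjamini-Hochberg adjustment over all genes, after a trial of the scripts on simulated data. A fold against a dim group is a lower bound, set against the higher of its own value and the lowest value of a probe well above background, on complete arrays. Such a bound holds for the main fit only, and over the alternatives some fitted changes were smaller than it. Named genes were the 10 members, the listed pathway and marker genes, and the 3 profiles nearest to the largest rise and fall. Members and lists were chosen with earlier results of these data known. Some listed pathway genes count in the totals but are not reported here by name.

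The alternatives were quantile normalization, normexp background correction with an offset of 50, complete arrays only, the value table, other filters, outlier spots kept, mean of probes, eBayes with trend, replicate number or slide row as a block, and each array left out. Complete arrays only and IG27 replicate 2 left out are the same fit, which counts under both names wherever alternative settings are counted.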

Additional observations from a re-analysis of the deposited data

How the results depend on the processing

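The 8 calls among the members held their direction and their side of the threshold in every alternative in which the gene was tested, and *Igf2* was called in none of its 16. With probes well above background on every complete array required, *Igf2* and *Igfbp4* dropped out and 7 members were called. The normexp correction used the median spot signals of the 5 complete arrays. With the slide row as a block, which compares IG27 cells with WT replicate 2 alone, the members ran from -3.53 for *Igfbp5* to 5.56 for *Igfbp2*. Leaving out 1 array gave 5.44 to 5.6 for *Igfbp2*, -3.69 to -3.59 for *Igfbp5*, and -0.68 to -0.08 for *Igf2*. The further pathway genes called numbered 37 with the slide row as a block and 38 to 46 with 1 array left out, against 45. Genes called among all genes tested numbered 8946 to 10822 over the alternatives, against 10501. The replicate numbers of WT and IG27 dishes do not pair them by any label, and the deviations of same-numbered arrays correlated at 0.012, 0.04 and 0.076 across genes. With the replicate block, 8 members, 42 pathway genes and 10309 genes in all were called. Probes near background in 1 or both groups limit the size of the changes of *Igfbp2*, *Igfbp4*, *Igfbp6* and *Igf2*. With normexp *Igfbp2* moved from 5.51 to 3.82, *Igfbp4* from 1.4 to 0.42 and *Igfbp6* from 1.11 to 0.56.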
